A study of Caenorhabditis elegans with 6 samples.

Results

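The cytosolic ribosomal proteins were followed in embryos of Caenorhabditis elegans, measured on 1-colour Affymetrix arrays. They were taken as all probe sets whose single annotated gene symbol begins with rpl-, rps- or rla- and a digit, which gave 111 of 22548 probe sets and 75 of 17118 genes, 45 of the large subunit (rpl) and 30 of the small subunit (rps). No symbol began with rla-, because the annotation lists the stalk proteins as rplp- genes. 109 of the 111 probe sets, and 74 of the 75 genes, passed the brightness filter and were tested.

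A ribosome reads messenger RNA on its small subunit and joins amino acids on its large subunit, and each subunit is a scaffold of ribosomal RNA dressed with many small, mostly basic proteins made in equal numbers. Oocytes hand the early embryo a large stock of ribosomes, and the factors that process ribosomal RNA and fold the subunits work in the nucleolus. Ribosomal protein messages are among the most abundant of a cell and usually move as a group.

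The groups were embryos of yap-1(ys38), mutant for yap-1, and embryos of the standard laboratory wild-type strain N2, with 3 biological replicates per strain and 1 array per replicate. Both were whole embryos freed by bleaching egg-bearing adults, neither was treated, and the labels give no age for the embryos. The YAP-1 protein is a relative of mammalian YAP, a coactivator of transcription that Hippo kinases restrain, and the study sought genes that act through it in keeping cells polarised. What the allele changes in the gene is not stated in the labels. The values are MAS5 signals (probe set intensities) that the authors scaled globally.

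Wild type replicate 2 stood apart: the submitters set it aside as unlike the others, and its median signal was 86.6, against 118 to 133 in the other 5 arrays. The strains were therefore compared over the 3 yap-1(ys38) arrays and wild type replicates 1 and 3, and values with replicate 2 follow. yap-1 itself read 371, 260.4 and 302 in yap-1(ys38) replicates 1, 2 and 3, against 267 and 555 in wild type replicates 1 and 3 (log2 fold change -0.32, SE 0.34, limma), so the array gives no check of the genotype. The 15 early and maternal and 16 differentiation markers of embryos all passed the filter on mean signal and were tested. Their lowest signal in a single array was 26.5, under the filter intensity of 53.5. Summed yolk protein signal, a sign of adult material, ran from 284 to 4499.6 in yap-1(ys38) arrays, against 7058 and 131 in wild type replicates 1 and 3 and 12316 in replicate 2.

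Ribosomal protein probe sets were bright and steady. Together they held 11.02%, 10.2% and 10.9% of the summed signal in yap-1(ys38) replicates 1, 2 and 3, against 10.99% and 11.5% in wild type replicates 1 and 3, with 9.05% in wild type replicate 2. Of the 109 tested probe sets, 105 lay in the top 5% of signals in each array except wild type replicate 2, where 106 did. The brightest probe set of a gene read 5180.2 to 30582 over the 6 arrays for all genes but rpl-11.1, which started at 1843. The SD of a gene's log2 signal over the 5 arrays compared had a median of 0.11, against 0.26 over all 10237 genes tested. It was 0.14 over 11 elongation and termination genes, which were bright as well. A comparison with all genes of like brightness was not made.

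Between the strains the ribosomal protein genes lay slightly lower in yap-1(ys38), but no gene passed the test. Taking the brightest tested probe set of each gene, 65 of 74 had a log2 fold change below 0, where 50.9% of all genes tested did. The median was -0.08, against -0.0044 over all genes, and the values ran from -0.29 to 0.27. After quantile normalization the median was -0.03, with 51 of 74 lower. limma called 0 of the 109 probe sets at an adjusted p under 0.05 (0% of all 13529 probe sets were called). At an unadjusted p under 0.05 limma gave 0 of the 109 probe sets, where 1.04% of all probe sets passed, and 0 of the 74 genes, where 0.938% of all genes did. The methods' t-test gave 1 probe set at its unadjusted threshold, that of rps-3, and 0 after adjustment, where 1.49% of all probe sets passed unadjusted. The median 95% interval of a gene reached 0.28 to either side of its estimate, and all 74 intervals included 0. Embryo stage markers also leaned, with 0 past an unadjusted p of 0.05: 13 of 15 early and maternal markers were higher in yap-1(ys38) (median 0.12), and 11 of 16 differentiation markers were lower (median -0.11). With all 6 arrays both leans turned, to 11 of 15 early markers lower (median -0.12) and 10 of 16 differentiation markers higher (0.08). Between arrays of the same number, the early markers' median differences were -0.09, -0.50 and 0.20 for numbers 1, 2 and 3. Their part in the ribosomal protein values was not tested. In whole embryos, fewer cells of a type and less RNA per cell cannot be told apart.

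**Figure D1:**
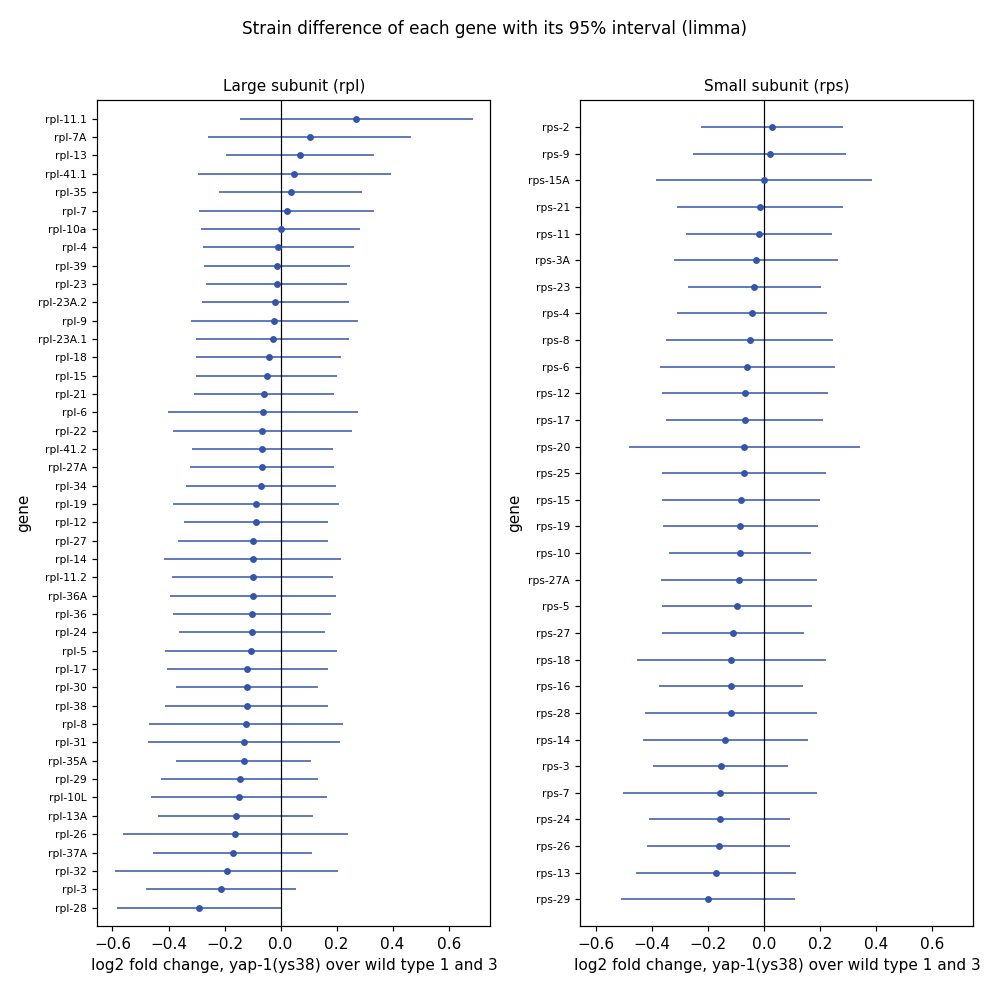
Log2 fold change of each ribosomal protein gene, yap-1(ys38) over wild type replicates 1 and 3 (horizontal axis), with its 95% interval from limma as a bar, for large subunit genes (left) and small subunit genes (right) in order of size. The points cluster just below 0, every bar crosses 0, and rpl-11.1 is the highest point at 0.27.

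The 2 subunits had similar medians. Large subunit genes had a median log2 fold change of -0.09, with 38 of 44 lower, and small subunit genes had a median of -0.08, with 27 of 30 lower. The large subunit, with more genes, spread more widely, from -0.29 to 0.27, against -0.20 to 0.03 for the small subunit. Its upper end was rpl-11.1 alone, and the next highest, rpl-7A, stood at 0.10. In each array the median deviations of the 2 subunits from the gene means lay close to each other. They were 0.07 and 0.09 (large and small) in yap-1(ys38) replicate 1, -0.07 and -0.06 in replicate 2 and 0.08 and 0.05 in replicate 3. In wild type they were 0.05 and 0.08 in replicate 1, 0.15 and 0.16 in replicate 3 and -0.29 and -0.28 in replicate 2.

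The shift rested on which arrays were set against each other. yap-1(ys38) replicate 2 was the lowest of the 5 arrays at 51 of 74 genes (20.9% of all genes tested), and wild type replicate 3 was the highest at 40 (24.96% of all genes). The median was -0.02, with 54 genes lower, when yap-1(ys38) replicate 2 was left out. It was -0.03, with 51 lower, when wild type replicate 3 was left out, and -0.14, with 59 lower, when wild type replicate 1 was. Arrays with the same number shared deviations across the strains, and blocking on that number gave a median of -0.02, with 54 lower and 0 ribosomal protein probe sets called. Without wild type replicate 2 the block leaves yap-1(ys38) replicate 2 no partner, so these medians equal those without that array. Within the pairs, 33 of 74 genes were lower in yap-1(ys38) for number 1 (51.2% of all genes tested), 8 for number 2 (48.7%) and 53 for number 3 (49.4%). The median differences were 0.01, 0.22 and -0.08. With all 6 arrays 22 of 74 genes were lower (45.9% of all genes) and the median was 0.04, against 0.03 over all genes, with 0 called.

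A sign of RNA quality differed between the arrays as well. The control transcripts' log2 ratio of 3-prime over 5-prime signal averaged 2.86, 3.00 and 3.07 in yap-1(ys38) replicates 1, 2 and 3, against 2.68 and 3.74 in wild type replicates 1 and 3, and was 3.64 in wild type replicate 2. Its part in the shift was not tested.

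**Figure D2:**
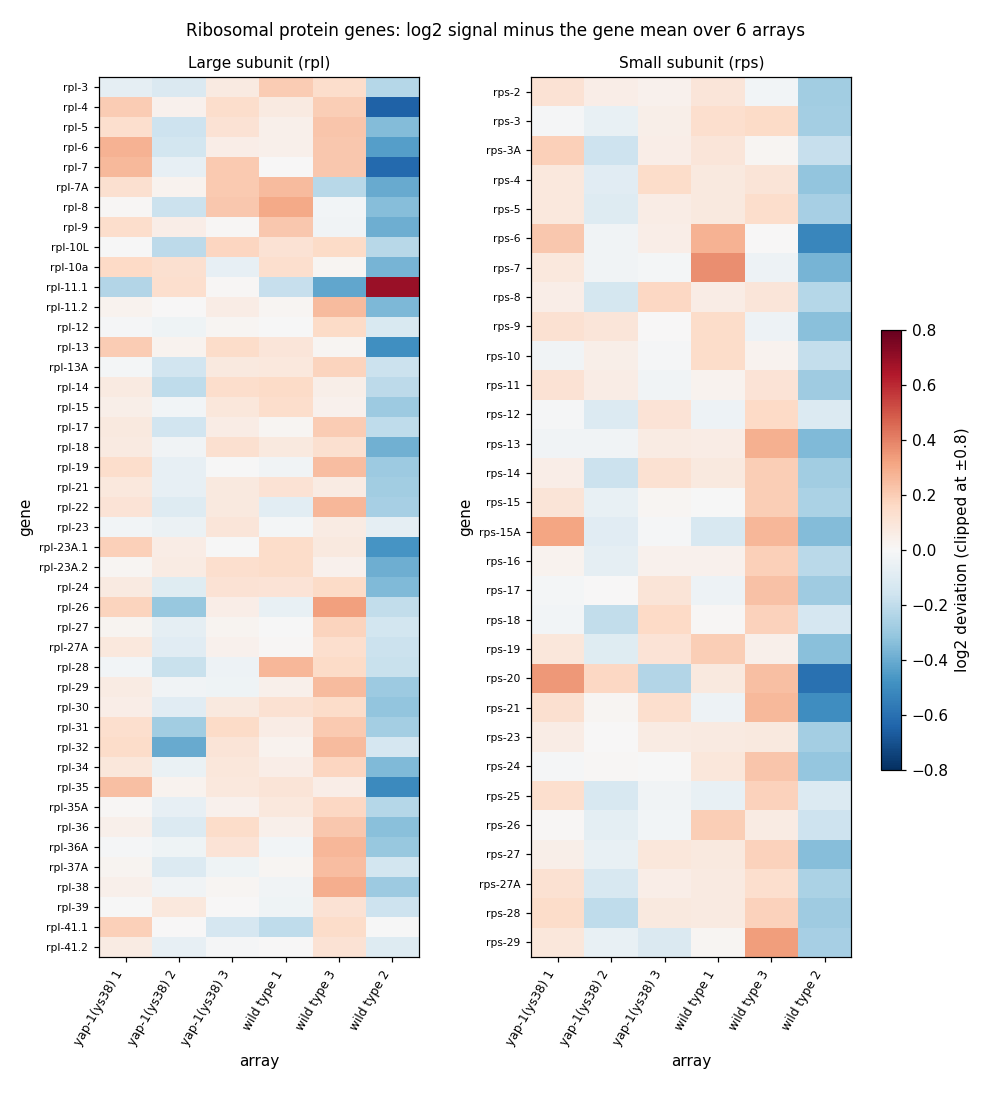
Log2 signal of each of 74 ribosomal protein genes (rows) minus that gene's mean over the 6 arrays, by array (columns, yap-1(ys38) left and wild type right), with red above and blue below the mean. The wild type 2 column is blue in 73 of 74 genes, the yap-1(ys38) 2 column in 53, and the one dark red cell is rpl-11.1 in wild type 2.

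Of the large subunit genes, rpl-28 and rpl-3 had the lowest p. rpl-28 read 8859, 7953 and 8727 in yap-1(ys38) replicates 1, 2 and 3, against 10832 and 9982 in wild type replicates 1 and 3 and 7962 in wild type replicate 2. All mutant arrays were below wild type replicates 1 and 3 (log2 fold change -0.29, SE 0.13, limma unadjusted p = 0.0518, adjusted p = 0.9998), while wild type replicate 2 lay among the mutant values. rpl-3, which lies next to the catalytic centre that joins amino acids, read 15707, 15213 and 17348 in yap-1(ys38), against 19013 and 18208 in wild type and 14111 in wild type replicate 2. Its groups did not overlap either (-0.21, SE 0.12), and wild type replicate 2 was below every mutant array. rpl-37A, a zinc-binding protein of the large subunit, read 15661, 14283 and 15058 in yap-1(ys38), against 15549.5 and 18303 in wild type and 13874 in wild type replicate 2 (-0.17, SE 0.13), and there the groups overlapped.

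Of the small subunit genes, rps-29, a zinc-binding protein, had the largest difference. It read 17901, 16142 and 15539 in yap-1(ys38), against 16964 and 21180.2 in wild type and 13985 in wild type replicate 2 (log2 fold change -0.20, SE 0.14). Its log2 difference was -0.45 within number 3, 0.08 within number 1 and 0.21 within number 2. rps-3, part of the channel by which messenger RNA enters, read 22467, 21700.1 and 23327 in yap-1(ys38), against 24830.4 and 25175 in wild type and 18759 in wild type replicate 2 (-0.15, SE 0.11). rps-26, at the channel by which messenger RNA leaves, read 19174, 18032 and 18770.3 in yap-1(ys38), against 21812 and 19940.3 in wild type and 17034 in wild type replicate 2 (-0.16, SE 0.11). In both genes the mutant arrays lay below wild type replicates 1 and 3 and above replicate 2, for rps-3 at its brighter probe set only. The same order held for rps-24, at 18449, 18737 and 18518 in yap-1(ys38), against 19772 and 21686 in wild type and 14985 in wild type replicate 2 (-0.16, SE 0.11). rps-13 read 12987, 13001 and 13849 in yap-1(ys38), against 13818 and 16140.1 in wild type and 10399 in wild type replicate 2 (-0.17, SE 0.13), with overlap. Every gene named here had an adjusted p of 0.9998 (limma).

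At 9 of 74 genes the mutant arrays were all below wild type replicates 1 and 3 (12.2%), where 5.25% of all genes tested were, and at 0 genes were they all above, where 5.76% were. These 9 were rpl-3, rpl-13A, rpl-28, rpl-30, rpl-35A, rps-3, rps-23, rps-24 and rps-26. Of them, rpl-13A, rpl-35A, rps-3 and rps-23 had a second tested probe set, and at each of those sets the strains overlapped. Conversely, rpl-21, rpl-24 and rps-10 were separated only at a dimmer set. Over probe sets, 12 of 109 were so separated, against 666 of all 13529. In wild type replicate 2, 8 of the 9 read below every yap-1(ys38) array, the exception being rpl-28, so with that array the strains overlapped at all 9.

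Over all 6 arrays the large subunit gene with the smallest SD was rpl-23, at 22401, 21993 and 24322 in yap-1(ys38), against 22453 and 23777 in wild type and 21628 in wild type replicate 2 (log2 fold change -0.01, SE 0.11). The small subunit gene with the smallest SD over the 6 arrays was rps-10, at 17948, 18926 and 18209.7 in yap-1(ys38), against 20251 and 18697 in wild type and 16043 in wild type replicate 2 (-0.08, SE 0.11). rps-20, with the largest SD of the small subunit, read 9956, 8758 and 6641 in yap-1(ys38), against 8266 and 9259 in wild type and 5180.2 in wild type replicate 2 (-0.07, SE 0.18). Its 2 lowest arrays belonged to different strains. Over the 5 arrays compared, rpl-15 and rps-23 had the smallest SD, 0.06 and 0.03.

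Where a gene had more than 1 probe set, the sets read the same RNA on the same arrays. Their gaps therefore do not measure variation between samples. For 31 genes with several tested probe sets, 35 comparisons of the brightest with another differed by a median of 0.06 in log2 fold change, close to the size of the group's shift, and 6 of them differed in sign. The widest gaps were at dim second probe sets. That of rpl-12, a protein at the base of the stalk, read 87.2, 53.3 and 101.9 in yap-1(ys38), against 45.9 and 88.6 in wild type and 72.7 in wild type replicate 2, near the filter intensity of 53.5, and gave 0.29, against -0.09 at its brightest. For rps-20 the dimmer set gave -0.37 and the brighter -0.07. For rps-18 they gave 0.17 and -0.12. These 3 genes were picked for their gaps. The suffix of a probe set marks how far its probes match more than 1 transcript. The median was -0.08 for the 34 sets ending in _at, -0.08 for the 55 in _s_at and -0.06 for the 20 in _x_at. Within numbers the suffixes differed more: for number 1, 19 of 34 _at sets and 1 of 20 _x_at sets were lower in yap-1(ys38) (medians -0.03 and 0.12), and for number 3 their medians were -0.04 and -0.15.

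**Figure D3:**
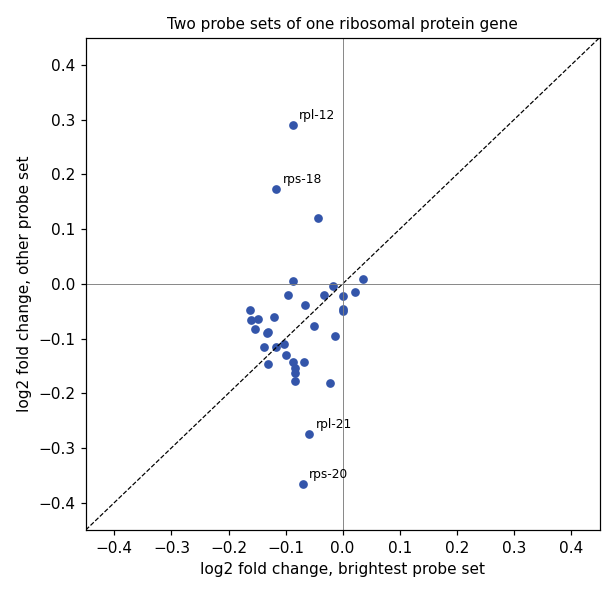
Log2 fold change, yap-1(ys38) over wild type replicates 1 and 3, of the brightest tested probe set of a ribosomal protein gene (horizontal axis) and of another tested probe set of that gene (vertical axis), 35 comparisons, with equality as a dashed line. Most points lie below 0 on both axes, and the labelled genes, rpl-12, rps-18, rpl-21 and rps-20, differ by more than 0.2.

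Only 2 probe sets were too dim to test. The one of rpl-42 read 15.9, 12.7 and 20.7 in yap-1(ys38), against 2.83 and 9.24 in wild type and 32.5 in wild type replicate 2, so no level can be given for this gene. A second probe set of rpl-8 read 1.38 to 22.4 over the 6 arrays. Its brighter one read 20544, 18084 and 23728 in yap-1(ys38), against 25203 and 20113 in wild type and 16108 in wild type replicate 2.

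Of the gene pairs whose symbols differ in their last digit, rpl-11.1 and rpl-11.2 differed in pattern. Both encode the large subunit protein that binds the subunit's smallest ribosomal RNA together with the rpl-5 protein. rpl-11.1 read 2098, 2704.5 and 2479 in yap-1(ys38), against 2172 and 1843 in wild type and 3967 in wild type replicate 2. Its log2 fold change was 0.27 (SE 0.18), the highest of the 74 genes, and its mutant values overlapped wild type. rpl-11.2 read 12444, 12219 and 12705 in yap-1(ys38), against 12297 and 14482 in wild type and 9479 in wild type replicate 2 (-0.10, SE 0.13). In wild type replicate 2 the first was thus the highest of its 6 values and the second, at its brightest probe set, the lowest. At the other tested set of rpl-11.2, wild type replicate 2 read 10962 and yap-1(ys38) replicate 2 was lower, at 10230.

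In the other pairs both copies lay closer to each other in wild type replicate 2. rpl-23A.1 and rpl-23A.2, copies of a protein at the mouth of the exit tunnel, had log2 fold changes of -0.03 (SE 0.12) and -0.02 (SE 0.12). The first read 16296, 14859 and 14279.6 in yap-1(ys38), against 15779.6 and 15064 in wild type and 10316 in wild type replicate 2. The second read 16176, 16761 and 17607 in yap-1(ys38), against 17770.5 and 16382 in wild type and 12209.6 in wild type replicate 2. rpl-41.1 and rpl-41.2, copies of the smallest ribosomal protein, stood at 0.05 (SE 0.15) and -0.07 (SE 0.11). rpl-41.1 read 16544, 14553 and 13257 in yap-1(ys38), against 12627 and 16059 in wild type and 14508 in wild type replicate 2. rpl-41.2 read 23774, 21703 and 22547 in yap-1(ys38), against 22774 and 24690.0 in wild type and 21136 in wild type replicate 2. Near-identical copies may share probe signal, so the values of a pair are uncertain. rpl-10a and rpl-10L, alike in symbol, encode different proteins, the first of the mobile stalk by which spent transfer RNA leaves and the second a protein that in yeast joins the large subunit late. They gave -0.00019 (SE 0.13) and -0.15 (SE 0.14). rpl-10a read 16183, 15841 and 13866 in yap-1(ys38), against 15906 and 14647 in wild type and 11210.1 in wild type replicate 2. rpl-10L read 15966, 13841 and 18038 in yap-1(ys38), against 17344 and 17811 in wild type and 13712 in wild type replicate 2. Both overlapped between the strains.

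**Figure D4:**
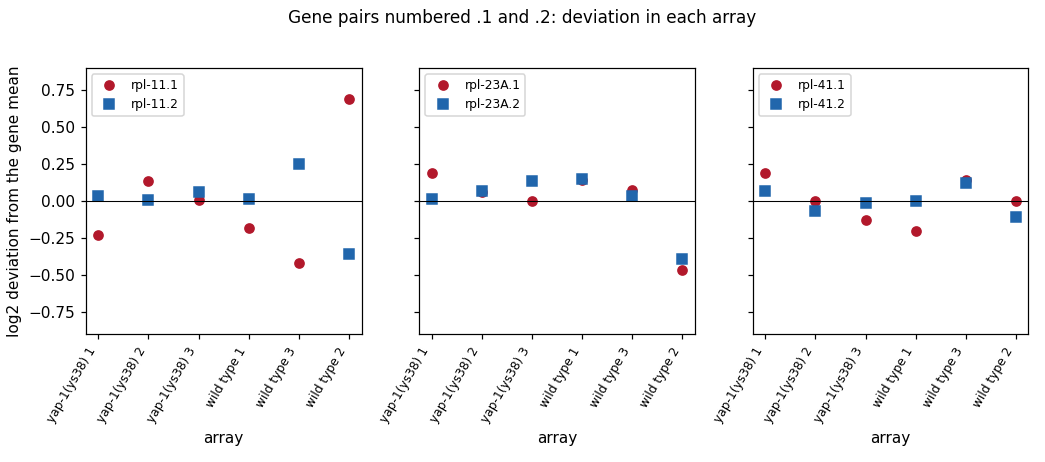
Log2 signal minus the gene's mean over the 6 arrays (vertical axis) in each array (horizontal axis, yap-1(ys38) left and wild type right) for 3 gene pairs, with the first copy of a pair as circles and the second as squares. In wild type 2 rpl-11.1 is far above 0 and rpl-11.2 below, while both rpl-23A copies lie below 0.

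In the RefSeq gene order, 3 pairs of ribosomal protein genes are direct neighbours: rps-10 with rpl-24, rpl-41.1 with rpl-41.2 and rps-14 with rpl-36. Their log2 fold changes were -0.08 and -0.10, 0.05 and -0.07, and -0.14 and -0.10.

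Ribosomal proteins that carry other symbols were set beside these genes. rplp-0, which anchors the stalk that calls in elongation factors, read 16460.0, 16891 and 16527 in yap-1(ys38), against 14913 and 14667 in wild type and 11543 in wild type replicate 2. All mutant arrays were above wild type here (log2 fold change 0.17, SE 0.11, limma adjusted p = 0.9998), unlike the 9 genes above. rplp-0 had the lowest p among the stalk genes and rpsa-1, and was the only 1 of these 5 so separated, where 5.76% of all genes tested were. The median of the 5 was -0.05, with 3 lower. rpsa-1, of the small subunit, read 23247, 16615 and 21409 in yap-1(ys38), against 20143 and 25774 in wild type and 18242 in wild type replicate 2 (-0.17, SE 0.17). ubq-2, a fusion of ubiquitin and a large subunit protein, and rack-1, a scaffold on the small subunit, gave -0.01 (SE 0.13) and -0.0041 (SE 0.13).

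No gene of the wider translation machinery passed the test between the strains. Of 142 genes tested in 5 lists, 0 passed the adjusted test in either direction, and 1, iff-1, had an unadjusted p under 0.05, a share of 0.938% over all genes tested. iff-1, a germline form of the translation factor eIF5A, read 8472, 9899 and 10670.2 in yap-1(ys38), against 7617 and 7298 in wild type and 14422 in wild type replicate 2 (log2 fold change 0.37, SE 0.14, unadjusted p = 0.0301). Its mutant arrays lay above wild type replicates 1 and 3 and below replicate 2. In medians, elongation and termination genes stood at -0.00033 (6 of 11 lower) and initiation genes at -0.04 (19 of 28). Ribosome biogenesis genes stood at -0.03 (20 of 36 lower), but at -0.14 with wild type replicate 1 left out and 0.08 with replicate 3 left out. The TOR pathway stood at 0.0033 (5 of 10) and mitochondrial ribosomal proteins at -0.05 (39 of 57), with 50.9% of all genes lower. The genes with the lowest p in each list are given with their log2 fold changes. After iff-1 the elongation list had eef-1B.2, an elongation factor subunit, at 0.24 (SE 0.16). The initiation list had eif-2Bepsilon, part of the factor that recharges eIF2, at -0.41 (SE 0.27) and ife-1, a germline cap-binding protein, at 0.25 (SE 0.17). Of biogenesis, tif-1A, a factor for transcribing ribosomal RNA genes, stood at 0.36 (SE 0.23) and lpd-7 at -0.22 (SE 0.15). let-363, the TOR kinase, stood at 0.45 (SE 0.22) and rsks-1, the kinase of the rps-6 protein, at -0.26 (SE 0.36). The mitochondrial genes mrpl-16 and mrps-18.C stood at -0.38 (SE 0.23) and -0.29 (SE 0.20). At iff-1, eef-1B.2, ife-1 and let-363 the mutant arrays were all above wild type replicates 1 and 3, as at 5.76% of all genes tested. At each of these genes wild type replicate 2 was above every mutant array. At lpd-7, mrpl-16 and mrps-18.C the mutant arrays were all below wild type replicates 1 and 3, as at 5.25% of all genes.

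The widest difference in ribosomal protein signal was within wild type. In wild type replicate 2, 65 of 74 genes had their lowest value of the 6 arrays (35.7% of all genes tested). From the mean of the other wild-type arrays the median difference was -0.40 on the log2 scale, with 72 of 74 genes below (49.9% of all genes). Large subunit genes stood at -0.40 and small subunit genes at -0.38, with all 30 small subunit genes below. This is 1 array, so the differences have no replicate check and no test.

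The size of the difference varied from gene to gene. At 11 genes, 6 large and 5 small, replicate 2 lay more than 0.5 below that mean, a share of the members under the 30.5% of all genes tested that did. rpl-4, which lines the exit tunnel, read 9714 in wild type replicate 2, against 15990.4 and 17457 in replicates 1 and 3 (log2 difference -0.78). rps-20 stood at -0.76 and rpl-7, a large subunit protein, at -0.74. rps-6, the small subunit protein phosphorylated by S6 kinase, read 9756, against 16946 and 14013 (-0.66). At the other end, rpl-23 was -0.10 and rpl-41.1 0.03 from the mean of the other wild-type arrays, and rpl-11.1 was 0.99 above it. rpl-11.1 alone of the 74 lay over 0.5 above all other arrays there, as 9.47% of all genes did. rpl-4, rpl-7 and rps-6 were chosen after their values were seen. Between 2 probe sets of a gene this difference varied by a median of 0.14, and in 34 of 35 comparisons both were below 0.

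Most other translation genes of wild type replicate 2 lay the opposite way. All 36 ribosome biogenesis genes tested were above the mean of the other wild-type arrays (median log2 difference 0.44), as were 24 of 28 initiation genes (0.35) and 46 of 57 mitochondrial ribosomal protein genes (0.20), where all genes tested had a median of 0.0021. The 4 stalk genes and rpsa-1 went with the ribosomal proteins, 5 of 5 below (-0.36). Embryo stage markers differed in the same array: 14 of 15 early and maternal genes were above (median 0.76, summed signal 55604, against 34618 and 42334 in wild type replicates 1 and 3), and 14 of 16 differentiation genes were below (-0.44, summed signal 57676, against 91485 and 102720.9). Summed sperm gene signal was 8473.5 there, against 6629 and 1270 in wild type replicates 1 and 3. In yap-1(ys38) replicates 1, 2 and 3 it was 6518, 2534.5 and 1676. Yolk genes were 5 of 5 above the mean of the other wild-type arrays and sperm genes 20 of 21 above. Their part in the ribosomal protein values was not tested.

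**Figure D5:**
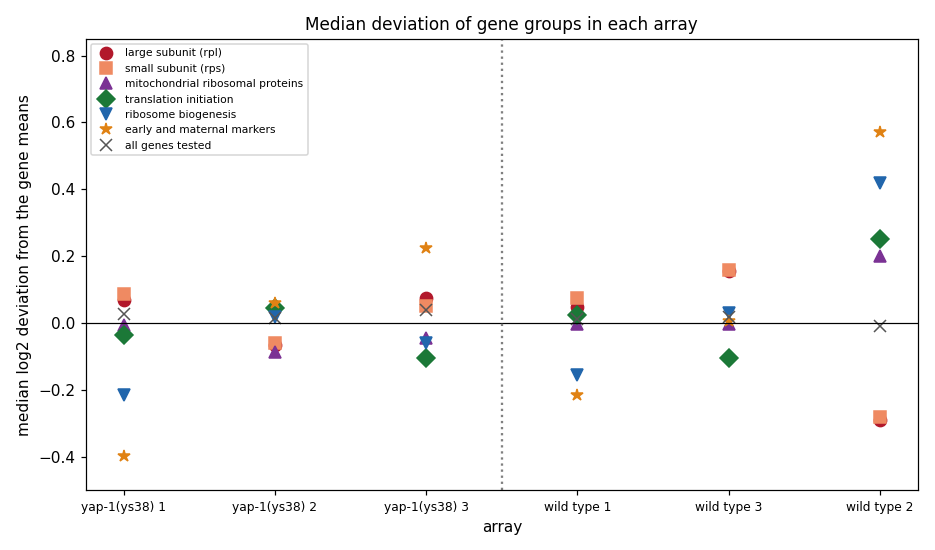
Median log2 deviation from the gene means over the 6 arrays (vertical axis) in each array (horizontal axis, yap-1(ys38) left and wild type right), for the 2 ribosomal subunits, other translation gene lists, early and maternal embryo markers and all genes tested. The 2 subunits lie close to each other in every array, and in wild type 2 they lie at -0.29 and -0.28 while ribosome biogenesis genes stand at 0.42.

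The scaling of the arrays changed the size of this difference. The brightest 1% of signals began at 9682 in wild type replicate 2, against 10874 in both other wild-type arrays and 10537 to 11467 in yap-1(ys38). After quantile normalization, an alternative added for this contrast after the data were seen, the median difference of the 74 genes was -0.11, with 58 below, against a median of 0.09 over all genes tested. Ribosome biogenesis genes then stood at 0.48, with 35 of 36 above. The opposite directions of the 2 groups relative to all genes thus held on both scales, while the size of the ribosomal protein difference did not.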

How the data were processed

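Embryo RNA of 3 yap-1(ys38) and 3 wild-type samples was read on 6 arrays. The deposited values are MAS5 signal intensities on a linear scale that the authors scaled globally, per the series' design text and the submitters' processing notes. The authors' detection calls were not used here.

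Control probe sets (77) were dropped. Of 22548 others, 13529 had a mean log2 intensity over the 40th percentile (53.5) and were fitted on log2 values in limma 3.58.1 (R 4.3.3), using lmFit and a trended eBayes. Tests were two-sided, with Benjamini-Hochberg adjustment over all 13529 and a threshold of 0.05, on the 3 yap-1(ys38) arrays and wild type replicates 1 and 3. The script was tested on simulated data. The platform annotation gave 20766 probe sets 1 symbol, 887 several and 895 none, and 20701 matched RefSeq (WBcel235). Probe sets with several symbols were not used. rpl-18A, rpl-37.1 and rpl-37.2 had no probe set listed under their symbol alone and were not analysed here. A gene is its brightest tested probe set, giving 10237 genes.

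Genes with values by array were chosen by rule: the 4 lowest p, 3 largest changes and extreme spreads per subunit, gene pairs by symbol, untested genes, and the 2 lowest p per other list. The members and lists were chosen with earlier results of these data known, and the list of rplp- genes and rpsa-1 was added after the annotation was read. The replicate numbers come from the titles. Across strains, deviations from each strain's mean correlated by 0.364 (number 1), 0.345 (number 2) and 0.445 (number 3). The main fit had no block, and pairing by number entered only the block fits and the differences within numbers. Alternatives covered the arrays, the block, scaling, filter, floor, variance model, the methods' t-test, probe set choice and leaving out each replicate. The number of arrays limits the precision.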

Additional observations from a re-analysis of the deposited data

Results flagged for a closer look

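rpl-11.1 read 3967 in wild type replicate 2, an array outside the comparison of strains, and lay there more than 0.5 on the log2 scale above each of the other 5 arrays (1843 to 2704.5). Of all genes tested, 9.47% did so in that array, and no other ribosomal protein gene did.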

How the results depend on the processing

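No ribosomal protein probe set was called in any alternative fit run, the replicate block included, which called 12 of all probe sets tested. With all 6 arrays, with or without the replicate block, 22 ribosomal protein genes were lower. There the medians were 0.038 for ribosomal proteins, 0.040 for the large and 0.034 for the small subunit, 0.098 for ubq-2 with rack-1, 0.097 for the stalk genes with rpsa-1, -0.12 for initiation, -0.19 for biogenesis and -0.13 for mitochondrial ribosomal proteins. In those fits these genes changed sign: rpl-11.1 to -0.058, rpl-23 to 0.018, rps-13 to 0.0040, rps-10 to 0.0087, rps-20 to 0.18, rpl-11.2 to 0.065, rpl-23A.1 to 0.17, rpl-23A.2 to 0.14, rpl-10a to 0.15, ubq-2 to 0.095, rack-1 to 0.10, eef-1B.2 to -0.0025 and rsks-1 to 0.054. With the replicate block on 5 arrays rpl-23 gave 0.015, rack-1 0.079 and rsks-1 0.00095. After quantile normalization rpl-23 gave 0.038, rpl-23A.2 0.026, rpl-10a 0.033 and rack-1 0.064, the medians were -0.030 for ribosomal proteins (51 lower), -0.021 for the large and -0.040 for the small subunit and 0.067 for elongation, and the difference of wild type replicate 2 was -0.11. Averaging probe sets turned eef-1B.2 to -0.082.

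Leaving out 1 replicate at a time, medians ran from -0.14 to -0.022 for all ribosomal proteins, -0.13 to -0.017 for the large and -0.16 to -0.025 for the small subunit, -0.14 to 0.084 for biogenesis, -0.0086 to 0.055 for elongation and -0.078 to 0.066 for initiation. The genes that changed sign ran from -0.080 to 0.079 (rack-1), -0.060 to 0.069 (rpl-10a), -0.22 to 0.018 (rpl-11.2), -0.058 to 0.027 (rpl-23), -0.082 to 0.013 (rpl-23A.1), -0.078 to 0.040 (rpl-23A.2), -0.13 to 0.22 (rpl-41.1), -0.20 to 0.094 (rps-20), -0.35 to 0.0057 (rpsa-1), -0.55 to 0.00095 (rsks-1), -0.12 to 0.091 (ubq-2) and -0.85 to 0.20 (yap-1). The cause was not tested.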
